A study of Mus musculus with 12 samples.

Results

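The 10 genes described here encode transcription factors that direct the fate of dendritic cells: Irf8, Batf3, Nfil3, Irf4, Klf4, Zeb2, Tcf4, Id2, Zbtb46 and Spi1. They were chosen by name, as a list of lineage regulators, and are 10 of the 52355 genes in the summed table. All 10 passed the filter on low counts, which kept 23729 genes.

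The study sequenced RNA of CD11c cells, a population rich in dendritic cells, isolated from inguinal lymph nodes of mice, in 12 libraries. The groups were tumor-draining nodes of mice that bore a subcutaneous KPC tumor and received a CD40 agonist (TdLN_CD40, the agonist libraries), tumor-draining nodes of tumor-bearing mice labelled as given no agonist (TdLN), and nodes of healthy mice with neither tumor nor agonist (Healthy), with 4 libraries each. KPC tumors model pancreatic carcinoma, and CD40 is a receptor through which T cells activate antigen-presenting cells. Strain, sex, age, the tumor line, the agonist's dose and timing, any control injection, and whether each library came from a separate animal are not stated in the labels. The p-values therefore reflect only how much these libraries vary, which may be technical.

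Dendritic cells arise from bone marrow progenitors under the control of a small set of transcription factors that act with and against each other. Spi1 (PU.1) is required early and helps open myeloid genes, Irf8 and Batf3 together build type 1 conventional dendritic cells, which cross-present antigen to CD8 T cells, and Irf4 and Klf4 shape type 2 conventional dendritic cells, which mainly prime CD4 T cells. Tcf4 (E2-2), an E protein, builds plasmacytoid dendritic cells, the type I interferon producers, while Id2 binds E proteins and keeps them from DNA. Nfil3 represses Zeb2 in progenitors and so opens the way to type 1 cells, Zeb2 favours the plasmacytoid and type 2 fates, and Zbtb46 marks the conventional lineage.

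The agonist libraries differed from TdLN libraries in some of these genes and not measurably in others. Klf4 fell to 0.459 of its TdLN level, Id2 and Batf3 stood 1.44-fold and 1.45-fold higher, and Tcf4 and Irf4 stood at 0.641 and 0.736 of their TdLN levels. In edgeR, Id2, Batf3, Tcf4 and Irf4 were called against TdLN with the pairing of libraries in the fit and not without it, and the call of Klf4 was lost without certain single libraries. Irf8, the most abundant of the 10, had groups that overlapped throughout. Between TdLN and Healthy libraries none of the 10 passed the test.

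Promoters are shown for 4 of these genes, as the 250 bases before the start annotated by RefSeq on build GRCm38.p6. Id2 and Batf3 stood higher and Klf4 lower in the agonist libraries. E proteins such as Tcf4 bind elements of the general form CANNTG, the E-box. In these 3 promoters the capitals mark it with any middle letters, so a mark need not be an E protein site. In the promoter of Irf4, which stood lower, they mark the PU.1 core GAGGAA, here on the opposite strand as its reverse complement. The Id2 promoter is chr12:25096093-25096342 (minus strand), that of Batf3 chr1:191098164-191098413 (plus), that of Klf4 chr4:55532476-55532725 (minus) and that of Irf4 chr13:30748983-30749232 (plus). Each is printed 5′ to 3′ along the gene.
Id2: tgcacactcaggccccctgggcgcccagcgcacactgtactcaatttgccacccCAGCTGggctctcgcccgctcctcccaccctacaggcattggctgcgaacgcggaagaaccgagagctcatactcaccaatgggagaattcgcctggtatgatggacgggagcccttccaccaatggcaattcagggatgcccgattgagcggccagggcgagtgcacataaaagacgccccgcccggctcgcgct
Batf3: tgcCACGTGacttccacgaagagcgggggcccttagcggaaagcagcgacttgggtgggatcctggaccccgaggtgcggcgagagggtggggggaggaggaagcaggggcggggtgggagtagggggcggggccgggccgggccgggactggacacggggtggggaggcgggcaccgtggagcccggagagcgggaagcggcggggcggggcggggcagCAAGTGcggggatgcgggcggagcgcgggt
Klf4: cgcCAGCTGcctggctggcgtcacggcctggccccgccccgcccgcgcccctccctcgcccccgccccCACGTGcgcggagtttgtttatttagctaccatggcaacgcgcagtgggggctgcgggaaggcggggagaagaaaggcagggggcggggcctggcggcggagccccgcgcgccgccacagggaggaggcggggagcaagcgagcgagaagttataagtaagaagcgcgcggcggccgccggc
Irf4: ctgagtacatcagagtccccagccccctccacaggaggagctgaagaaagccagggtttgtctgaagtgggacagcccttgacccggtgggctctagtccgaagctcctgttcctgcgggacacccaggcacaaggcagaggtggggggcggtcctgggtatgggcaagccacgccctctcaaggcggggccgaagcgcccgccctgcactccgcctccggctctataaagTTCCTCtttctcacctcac
The Id2 promoter held 1 E-box, and those of Batf3 and Klf4 held 2 each. Of 32807 annotated mouse promoters of the same length, 66.2% held an E-box on either strand, and 23.3% held the PU.1 core, so that both are common. The rarer IRF element (GAAA, NN and GAAA in a row, in 2.97% of promoters) and the kappaB element (3.9%), both searched on both strands, were in none of the 8 promoters that matched by symbol. Besides the 4 shown, Irf8 held none of the motifs, Zbtb46 held 5 E-boxes and 1 AP-1 element (TGANTCA, in 6.75% of promoters), Zeb2 held 2 AP-1 elements and 1 PU.1 core, and Nfil3 held 1 E-box. The RefSeq starts of Zbtb46 and Zeb2 lie 35038 and 87362 bases from the start of the transcript with most of their TPM here, so their windows are not the promoters of those transcripts. Batf3 also held 1 PU.1 core. These are matches of letters in a short window and say nothing of whether a factor was bound.

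Compared per length of transcript, the factors fell into an abundant and a scarcer set. Levels are in TPM, an abundance scaled for transcript length and library total, summed over the transcripts of a gene and averaged over the 12 libraries. Irf8 had 393 TPM (230 to 547), Id2 267 TPM (202 to 361), Spi1 257 TPM (162 to 341) and Zeb2 210 TPM (164 to 247). A gap followed, since Zeb2 was above Tcf4 in 12 of 12 libraries and their ranges did not overlap. Tcf4 had 69.6 TPM (36.2 to 95.9), Batf3 54.1 TPM (38.9 to 77.0), Irf4 39.5 TPM (26.6 to 52.1) and Zbtb46 36.5 TPM (25.4 to 48.8). Klf4 followed with 17.8 TPM (7.74 to 32.1) and Nfil3 with 7.37 TPM (5.03 to 10.5). All other neighbours in this order had overlapping ranges. Id2 was above Spi1 in only 7 of 12 libraries, Tcf4 above Batf3 in 8, Irf4 above Zbtb46 in 8 and Batf3 above Irf4 in 9. The others held their order in 10 to 12 libraries.

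**Figure D1:**
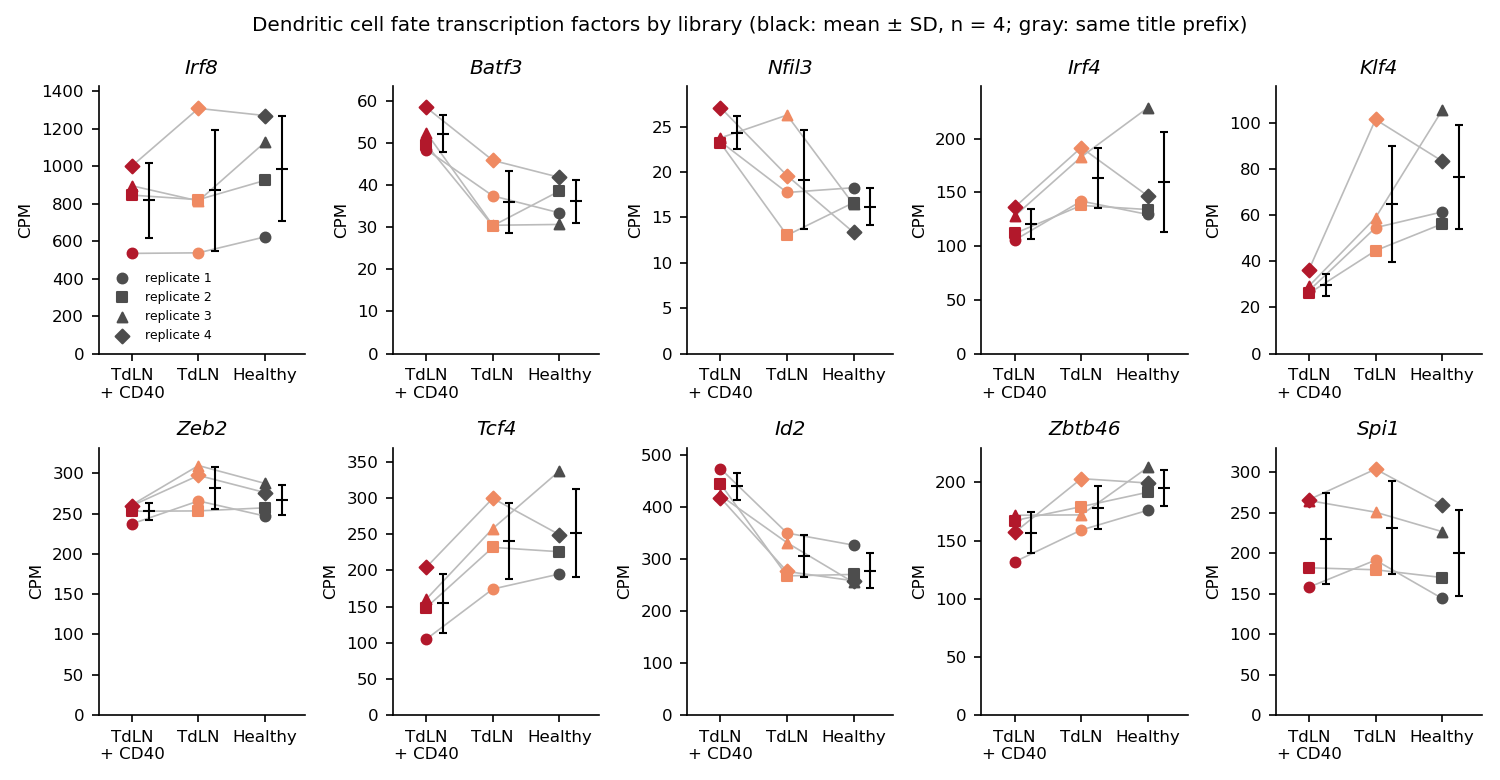
CPM of each factor (y axis, from 0), in every library, by group on the x axis; points of one shape joined by gray lines share a title prefix, and black bars are the mean ± SD of 4 libraries. Klf4, Id2, Batf3 and, by little, Irf4 separate the agonist libraries from the TdLN libraries, whereas Irf8 and Spi1 differ more between prefixes than between groups.

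The library titles carry a prefix that 1 library of each group shares, used here as the replicate number 1 to 4, and libraries with the same prefix deviated together. Values below are CPM (counts corrected for library size) in replicates 1 to 4, and fold changes are log2 values with their standard error (SE) from edgeR's quasi-likelihood test. Called means an adjusted p under 0.05 after Benjamini-Hochberg correction over all genes tested. Where the fit with the prefix as a block changed a call, its adjusted p is given as well. Library totals were 32626784 to 56320661 estimated counts, and the factors had between 594 (Nfil3) and 60901 (Irf8) counts in a library, so that counting error was small beside the spread between libraries. Malat1, a nuclear noncoding RNA, took 0.418% to 2.47% of a library's counts and was higher in replicates 1 and 2 of each group. In replicates 1 to 4 it took 2.44%, 2.09%, 0.704% and 1.15% in agonist and 1.68%, 1.25%, 0.418% and 0.604% in TdLN libraries. Healthy libraries had 2.4%, 2.47%, 0.768% and 0.836%, so within every prefix Malat1 was lowest in the TdLN library. What part this had in the values below was not tested. Mitochondrial genes took 1.23% to 4.75% of the counts.

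The first question was how the agonist libraries differed from TdLN libraries. Of the 10 factors 1 was called, Klf4, which was lower, against 2.68% of all genes tested (1.85% higher and 0.83% lower). The blocked fit called 5, Id2 and Batf3 higher and Klf4, Irf4 and Tcf4 lower, beside 13.3% of all genes (6.74% higher and 6.58% lower). DESeq2 called 2, Klf4 and Id2, against 4.98% of all genes. The groups did not overlap in CPM for 4 factors, 2 higher (Id2, Batf3) and 2 lower (Klf4, Irf4), against 8.26% of all genes (4.86% higher and 3.4% lower). The median log2 fold change of the 10 was -0.12, beside 0.02 over all genes, and the median size without sign was 0.39, beside 0.23.

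Klf4, a zinc finger factor needed for a subset of type 2 cells that drives type 2 helper responses, had 27.3, 26.1, 29.3 and 36.4 CPM in agonist libraries. In TdLN libraries it had 54.6, 44.6, 58.9 and 101.5 CPM, and in Healthy libraries 61.4, 56.2, 105.4 and 83.5 CPM. Every agonist library was below every library of the other groups, and TdLN and Healthy libraries overlapped. The fall against TdLN was -1.12 (SE 0.25, 95% interval -1.66 to -0.59, adjusted p = 0.0264), lower in 4 of 4 prefixes. This call was lost without agonist replicate 1, 2 or 3 or without TdLN replicate 3 or 4, with a log2 fold change of -1.17 to -0.84 and an adjusted p of 0.0504 to 0.0794. It was also lost in a limma fit of log2(TPM + 1), at -0.90 (adjusted p = 0.130). Against Healthy the fall was -1.37 (SE 0.25, adjusted p = 0.00428), and this call held with any 1 library left out (highest adjusted p = 0.0182). The main transcript, Klf4-201, had 5.2, 6.3, 6.3 and 8.3 TPM in agonist libraries against 11.5, 11.5, 15.1 and 21.6 TPM in TdLN libraries. Klf4 lies on chromosome 4 from 55527143 to 55532466 on the minus strand (GRCm38).

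Irf4, which type 2 cells use for differentiation, antigen presentation and migration to lymph nodes, had 105.7, 111.8, 128.0 and 136.4 CPM in agonist libraries. It had 142.0, 137.9, 183.2 and 191.9 CPM in TdLN libraries and 129.5, 134.1, 228.9 and 146.8 CPM in Healthy libraries. The agonist libraries were all below the TdLN libraries, by little at the edge, and overlapped the Healthy ones. The difference from TdLN was -0.44 (SE 0.19, adjusted p = 0.307), and with the prefix as a block it was -0.43 (SE 0.11, adjusted p = 0.0202). Against Healthy it was -0.41 (SE 0.19, adjusted p = 0.276; 0.0271 with the block). Irf4 was lower in the agonist library in 4 of 4 prefixes in both comparisons.

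Zeb2, a repressor that favours type 2 and plasmacytoid cells and lies downstream of Nfil3, had 237.4 to 261.0 CPM in agonist libraries. Its range was 253.5 to 309.8 CPM in TdLN libraries and 247.1 to 287.6 CPM in Healthy libraries, so all groups overlapped. Its log2 difference was -0.16 (SE 0.12, 95% interval -0.40 to 0.09) from TdLN and -0.08 (SE 0.12, 95% interval -0.33 to 0.17) from Healthy, neither called with or without the block. It was lower in the agonist library in 4 of 4 prefixes in both comparisons, and with the block the difference from TdLN was -0.15 (95% interval -0.29 to -0.01, adjusted p = 0.142). Among the 10, Zeb2 and Zbtb46 had the narrowest intervals.

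The type 1 factors did not share 1 pattern. Batf3, which pairs with Jun proteins and Irf8 and is required for type 1 cells, had 48.4, 49.6, 52.4 and 58.4 CPM in agonist libraries. It had 37.4, 30.3, 30.4 and 45.8 CPM in TdLN libraries and 33.4, 38.5, 30.6 and 41.8 CPM in Healthy libraries. In CPM every agonist library was above every other library. In TPM the lowest agonist library (54.99 TPM, replicate 1) was above all TdLN libraries (at most 53.30 TPM) but below Healthy replicate 2 (60.53 TPM). The difference from TdLN was 0.54 (SE 0.15, adjusted p = 0.0815; 0.00264 with the block), and from Healthy 0.53 (SE 0.15, adjusted p = 0.0514; 0.00186 with the block). Without TdLN replicate 4 the first came just under the threshold (log2 fold change 0.66), and without TdLN replicate 3 or 4 the second reached 0.0486 and 0.0420.

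The protein-coding transcript of Batf3 carried less of this difference than its other annotated transcripts. Batf3-201, the only one of its 5 transcripts annotated as protein coding, had 19.82, 30.11, 33.71 and 41.51 TPM in agonist libraries, 21.17, 21.84, 27.13 and 34.55 TPM in TdLN libraries and 17.86, 27.58, 21.96 and 30.67 TPM in Healthy libraries, and all 3 groups overlapped. The other transcripts together had 35.17, 41.60, 32.46 and 35.44 TPM in agonist libraries, 24.13, 21.44, 13.96 and 18.75 TPM in TdLN libraries and 27.08, 32.95, 16.97 and 21.01 TPM in Healthy libraries. For these the agonist libraries did not overlap TdLN libraries, while the lowest agonist library was just below the highest Healthy one. Batf3-201 held 36.0% to 53.9% of the gene's TPM in agonist libraries, against 46.7% to 66.0% in TdLN and 39.7% to 59.3% in Healthy libraries. The split of reads between overlapping transcripts is a model estimate, and no test was made on it.

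**Figure D2:**
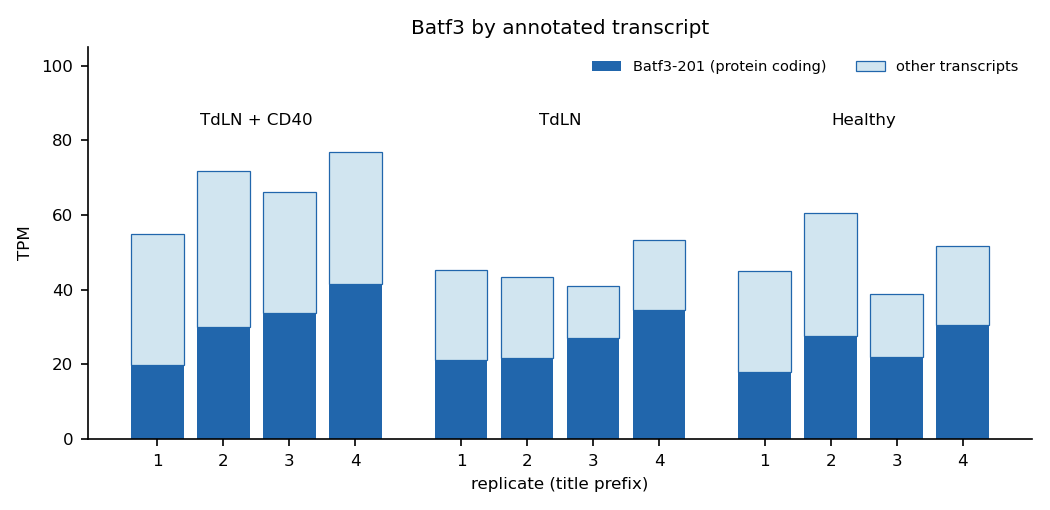
Stacked bars give the TPM of Batf3 in each library (y axis, from 0), split into the protein-coding transcript Batf3-201 and all other annotated transcripts, for replicates 1 to 4 of each group. The other transcripts reach 32.46 to 41.60 TPM in agonist libraries against 13.96 to 24.13 TPM in TdLN libraries, whereas Batf3-201 overlaps between groups.

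Irf8, which type 1 cells need throughout life and plasmacytoid cells need for full function, had 534, 846, 895 and 1001 CPM in agonist libraries. It had 537, 821, 815 and 1309 CPM in TdLN libraries and 623, 924, 1128 and 1270 CPM in Healthy libraries. Replicate 1 was the lowest library of each group, and the spread within a group was wider than the differences between groups. The difference from TdLN was -0.09 (SE 0.28, 95% interval -0.68 to 0.50), and with the block -0.06 (SE 0.09, 95% interval -0.26 to 0.15, adjusted p = 0.763). From Healthy it was -0.27 (SE 0.28, adjusted p = 0.728; 0.0741 with the block), lower in 4 of 4 prefixes. In bulk libraries such as these, fewer cells of a type and less RNA per cell cannot be told apart.

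Nfil3, a basic leucine zipper factor of type 1 cell and innate lymphoid development, had 23.4, 23.2, 23.8 and 27.1 CPM in agonist libraries. It had 17.8, 13.0, 26.3 and 19.6 CPM in TdLN libraries and 18.3, 16.6, 16.4 and 13.3 CPM in Healthy libraries. The agonist libraries were all above the Healthy ones and overlapped the TdLN ones, of which replicate 3 was nearly as high as the highest agonist library. The difference from TdLN was 0.35 (SE 0.18, adjusted p = 0.465; 0.187 with the block) and from Healthy 0.59 (SE 0.18, adjusted p = 0.0705; 0.0326 with the block). Without TdLN replicate 2 or 3, which enter the shared estimate of spread, the adjusted p against Healthy was 0.0351 and 0.0308.

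Id2 and Tcf4, the opposed pair of the E protein axis, stood on opposite sides of 0 in both comparisons of agonist libraries. Id2 had 473.9, 444.7, 422.3 and 417.7 CPM in agonist libraries, 350.0, 267.6, 331.4 and 276.0 CPM in TdLN libraries and 326.8, 270.4, 255.0 and 258.1 CPM in Healthy libraries. Every agonist library was above every other library. The difference from TdLN was 0.52 (SE 0.13, adjusted p = 0.0551; 0.00111 with the block), which was called without the block by DESeq2 (adjusted p = 0.00414) and by limma on log2(TPM + 1) (adjusted p = 0.0371). Against Healthy Id2 rose by 0.66 (SE 0.13, adjusted p = 0.00809), and this call held with any 1 library left out (highest adjusted p = 0.0411). The coding transcript Id2-201 held 89.5% to 96.1% of the gene's TPM. Id2 lies on chromosome 12 from 25093799 to 25097140 on the minus strand (GRCm38).

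Tcf4 had 104.8, 148.6, 160.1 and 204.2 CPM in agonist libraries. It had 174.3, 231.9, 257.9 and 299.8 CPM in TdLN libraries and 195.0, 225.9, 337.5 and 249.6 CPM in Healthy libraries. The groups overlapped, since agonist replicate 4 was above replicate 1 of both other groups, but within each prefix the agonist library was lowest. The difference from TdLN was -0.64 (SE 0.22, adjusted p = 0.177; 0.00236 with the block) and from Healthy -0.71 (SE 0.22, adjusted p = 0.0799; 0.000754 with the block). Without agonist replicate 4 the second was -0.90 (adjusted p = 0.0430). Tcf4 has 62 annotated transcripts, of which the protein-coding ones held 52.8% to 77.8% of its TPM.

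As a ratio within a library, log2 of Tcf4 over Id2 in TPM was -3.13, -2.72, -2.73 and -2.36 in agonist libraries. It was -2.20, -1.47, -1.94 and -1.32 in TdLN libraries and -1.80, -1.49, -1.08 and -1.32 in Healthy libraries. The agonist libraries lay below all others. Within prefixes the ratio was lower in the agonist library than in the TdLN library in 4 of 4, with differences of -1.26 to -0.78. The log2 ratio of Irf8 to Irf4, the factors most tied to type 1 and type 2 cells, was 3.51 ± 0.27 in agonist, 3.01 ± 0.32 in TdLN and 3.33 ± 0.27 in Healthy libraries (mean ± SD, n = 4 each). The 3 groups overlapped, but within every prefix the agonist library was above the TdLN library, by 0.28 to 0.68, and the TdLN library was below the Healthy one, with differences of -0.38 to -0.21. These ratios are given as a description, with no test.

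**Figure D3:**
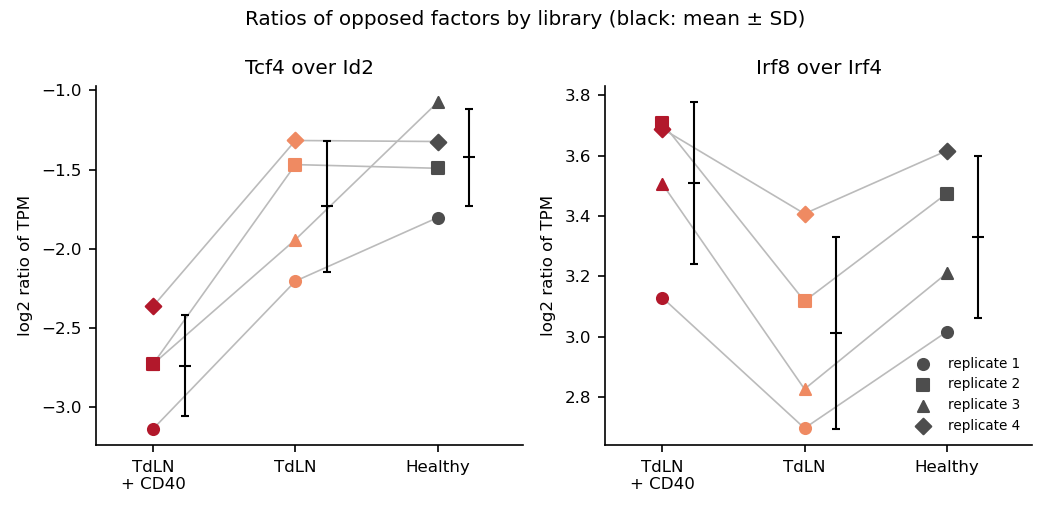
The log2 ratio of TPM of Tcf4 over Id2 (left) and of Irf8 over Irf4 (right) in each library, by group on the x axis; shapes and gray lines mark the title prefix, and black bars are the mean ± SD of 4 libraries. Tcf4 over Id2 is lowest in the agonist libraries, between -3.13 and -2.36, and Irf8 over Irf4 is lowest in the TdLN library of each prefix.

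Zbtb46, a zinc finger factor of the conventional lineage that restrains activation genes at rest, had 131.7, 167.2, 171.8 and 157.0 CPM in agonist libraries. It had 159.1, 179.2, 172.1 and 203.2 CPM in TdLN libraries and 176.0, 191.5, 212.9 and 199.5 CPM in Healthy libraries. In CPM the agonist libraries lay below all Healthy libraries and overlapped the TdLN ones. In TPM the highest agonist library (36.7 TPM, replicate 2) was just above Healthy replicate 1 (36.5 TPM). The difference from Healthy was -0.31 (SE 0.13, adjusted p = 0.197; 0.00913 with the block), and from TdLN -0.18 (SE 0.13, adjusted p = 0.652; 0.118 with the block). In both comparisons it was lower in the agonist library in 4 of 4 prefixes.

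Spi1, the ETS factor PU.1, followed the prefix more than the group. It had 158.1, 182.0, 265.2 and 266.3 CPM in agonist libraries, 191.5, 179.6, 250.8 and 304.0 CPM in TdLN libraries and 144.2, 170.0, 226.7 and 260.1 CPM in Healthy libraries. Replicates 3 and 4 were above replicates 1 and 2 in each group. With the block its log2 difference was -0.09 (SE 0.07, 95% interval -0.25 to 0.07) from TdLN and 0.12 (SE 0.07, 95% interval -0.04 to 0.28) from Healthy, neither called.

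**Figure D4:**
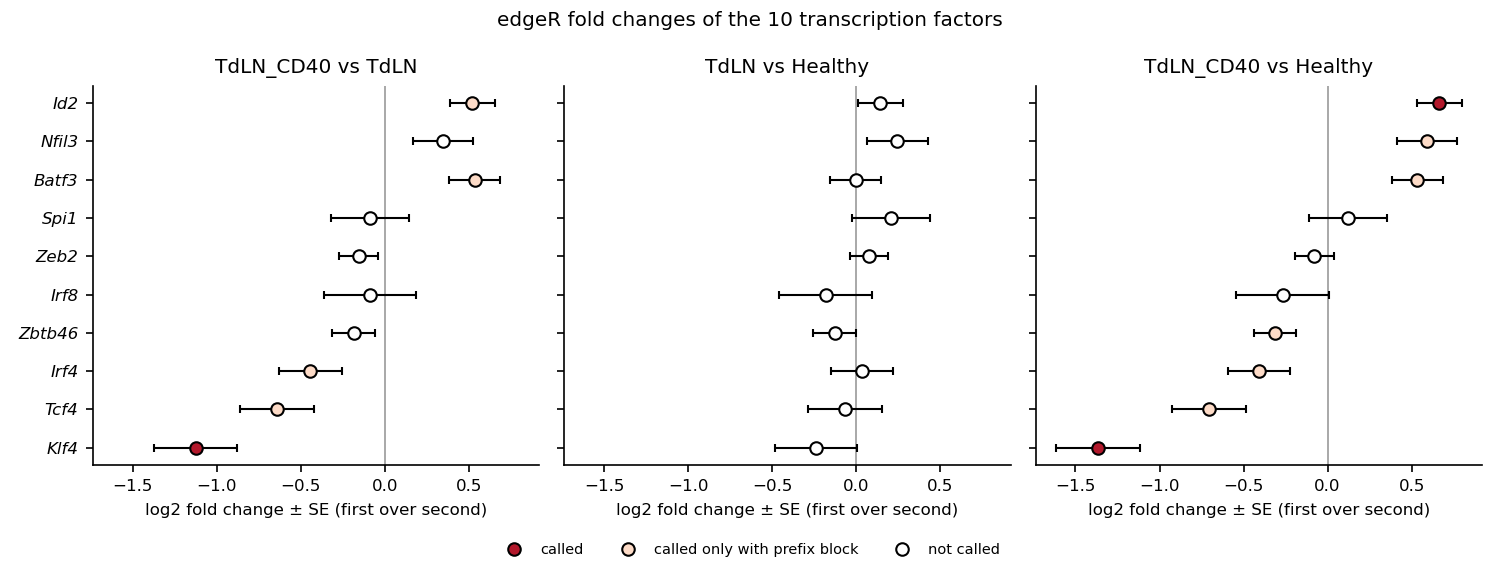
Log2 fold change ± SE of each factor (x axis) in the 3 comparisons, from edgeR without the prefix block; dark points were called, pale points were called only with the prefix as a block and white points in neither fit. Klf4 is lowest and Id2 and Batf3 are among the highest in both comparisons of agonist libraries, and all points lie near 0 between TdLN and Healthy.

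The second question was whether a draining tumor alone was accompanied by a difference in these factors. Of the 10, 0 were called between TdLN and Healthy libraries by edgeR, against 0.198% of all genes, and 0 had an unadjusted p under 0.05. With the prefix as a block 0 were called, against 6.3% of all genes, 1 had an unadjusted p under 0.05 (Spi1), and DESeq2 called 0, against 1.66% of all genes. For 0 factors were the groups free of overlap, against 4.26% of all genes. The log2 fold changes ran from -0.24 for Klf4 (SE 0.25, 95% interval -0.77 to 0.28) to 0.25 for Nfil3 (SE 0.18, 95% interval -0.14 to 0.63). Their median size without sign was 0.14, beside 0.22 over all genes. Spi1 was the 1 factor higher in the TdLN library in 4 of 4 prefixes, with a log2 fold change of 0.22 with the block (SE 0.07, adjusted p = 0.0994). Irf8 was lower in 3 of 4 prefixes, at -0.20 with the block (SE 0.09, 95% interval -0.40 to 0.00, adjusted p = 0.206).

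The third comparison, of agonist with Healthy libraries, shares its libraries with the other comparisons. Of the 10 factors 2 were called, Id2 higher and Klf4 lower, against 6.28% of all genes (4.25% higher and 2.03% lower). With the block 7 were called, 3 higher (Id2, Batf3, Nfil3) and 4 lower (Klf4, Tcf4, Irf4, Zbtb46), against 20.1% of all genes (11.7% higher and 8.46% lower). DESeq2 called 4, Id2, Batf3 and Nfil3 higher and Klf4 lower, against 9.08% of all genes. The groups did not overlap in CPM for 5 factors, Id2, Batf3 and Nfil3 higher and Klf4 and Zbtb46 lower, against 12.4% of all genes (7.6% higher and 4.75% lower). The median log2 fold change was -0.17, beside -0.03 over all genes, and the median size without sign was 0.47, beside 0.27.

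The wider circle of 40 other transcription factors of dendritic cell development and maturation held members that moved in both directions. Between agonist and TdLN libraries 4 rose and 3 fell (10 and 11 with the block), beside 2.68% of all genes called (13.3% with the block), and their median log2 fold change was 0.12. Among those that rose were Nr1h3, the oxysterol receptor LXR alpha, at 172 ± 52.1 CPM against 72.3 ± 6.63 CPM (log2 fold change 1.25, adjusted p = 0.00659), and Irf1, an interferon response factor, at 491 ± 47.2 against 285 ± 30.6 CPM (0.79, adjusted p = 0.00734). Batf2, a relative of Batf3 that can stand in for it in the mouse, rose to 10.5 ± 2.91 against 4.10 ± 1.64 CPM (1.35, adjusted p = 0.0217).

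Those that fell were Bcl11a, a factor of plasmacytoid and B cells, at 52.3 ± 8.07 CPM in agonist against 107 ± 15.1 CPM in TdLN libraries (-1.04, adjusted p = 0.00567), Runx1, at 53.5 ± 3.48 against 84.5 ± 6.60 CPM (-0.66, adjusted p = 0.00957), and Bach2, a repressor of effector programs in lymphocytes, at 16.4 ± 2.33 against 28.5 ± 5.74 CPM (-0.80, adjusted p = 0.0372). Single libraries decided the calls of Batf2 and Bach2. That of Batf2 was lost without agonist replicate 1 or 3 or TdLN replicate 1 or 2 (adjusted p = 0.0508 to 0.0619). That of Bach2 was lost without any 1 agonist library, TdLN replicate 2, 3 or 4, or Healthy replicate 2 or 4 (adjusted p = 0.0532 to 0.114). In limma on log2(TPM + 1) the calls of Nr1h3 (adjusted p = 0.0856), Irf1 (0.0542), Bcl11a (0.0692) and Bach2 (0.231) were lost. Of these 6 calls, all but that of Bcl11a were lost without prefixes 1 and 2 (adjusted p = 0.0645 to 0.106), and all were lost without prefixes 3 and 4 (adjusted p = 0.0700 to 0.386).

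Further factors passed with the block. Id1, a relative of Id2 that also blocks E proteins, had 3.68 ± 1.01 CPM in agonist against 1.46 ± 0.604 CPM in TdLN libraries (log2 fold change 1.33, adjusted p = 0.0693; 0.00560 with the block). Bcl6, a repressor that type 1 cells use, had 51.1 ± 7.58 against 75.7 ± 11.99 CPM (-0.57, adjusted p = 0.0814; 0.00129 with the block). Between TdLN and Healthy libraries 0 of the 40 were called, and with the block 6 rose and 1 fell, beside 6.3% of all genes called with the block. The higher ones included Ikzf1, Ikaros, at 286 ± 73.8 CPM in TdLN against 202 ± 59.4 CPM in Healthy libraries (0.50, adjusted p = 0.653; 0.00380 with the block). Another was Spib, a relative of Spi1, at 209 ± 46.4 against 147 ± 46.2 CPM (0.50, adjusted p = 0.682; 0.00784 with the block). The lower one was Rbpj, the DNA-binding partner of Notch in type 2 cells, at 218 ± 13.6 against 275 ± 18.9 CPM (-0.34, adjusted p = 0.361; 0.0293 with the block). Between agonist and Healthy libraries 9 of the 40 rose and 5 fell (19 and 10 with the block), beside 6.28% of all genes called (20.1% with the block).

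Genes that mark the cell types built by these factors were compared next. For these and the lists below, the share of all genes called against TdLN was 2.68%, with 0.83% lower (13.3% with the block). It was 6.28% (20.1% with the block) between agonist and Healthy libraries. Between TdLN and Healthy libraries it was 0.198% (6.3% with the block). Of the 15 type 1 marker genes tested, 0 rose and 2 fell against TdLN (0 and 13 with the block), and 0 rose and 11 fell against Healthy. The 2 were Naaa, a lysosomal amidase, at 317 ± 102 CPM in agonist against 699 ± 193 CPM in TdLN libraries (-1.14, adjusted p = 0.0304), and Clec9a, a receptor for dead cells, at 52.5 ± 15.7 against 91.4 ± 13.3 CPM (-0.80, adjusted p = 0.0335). Both calls were lost without agonist replicate 1, 3 or 4 or TdLN replicate 2, 3 or 4 (adjusted p = 0.0652 to 0.106). Xcr1, a chemokine receptor of type 1 cells chosen after its values were seen, had 98.1 ± 44.2 against 198 ± 51.6 CPM (-1.01, adjusted p = 0.0886; 0.0140 with the block). The median of the 15 was -0.75, opposite in sign to Batf3, while Irf8 was near 0. Their summed level was 1837 to 3996 CPM in agonist, 3780 to 6267 CPM in TdLN and 4904 to 7239 CPM in Healthy libraries. Summed levels, here and for the lists below, were scaled by library total alone.

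Of 16 type 2 marker genes, 0 rose and 3 fell against TdLN (0 and 4 with the block), with a median of -0.16. The 3 were the C-type lectins Cd209a, at 28.7 ± 15.0 CPM in agonist against 183 ± 50.3 CPM in TdLN libraries (-2.67, adjusted p = 0.00144), Mgl2, at 43.3 ± 12.8 against 124 ± 49.1 CPM (-1.52, adjusted p = 0.0102), and Clec10a, at 40.4 ± 6.56 against 93.8 ± 24.6 CPM (-1.22, adjusted p = 0.00697). These calls held with any 1 library left out (highest adjusted p = 0.0386). Without prefixes 1 and 2, Cd209a and Mgl2 lost theirs (adjusted p = 0.155 and 0.124). Without prefixes 3 and 4, Cd209a, Mgl2 and Clec10a lost theirs (adjusted p = 0.0727, 0.401 and 0.123). Against Healthy 1 rose and 3 fell (5 and 3 with the block), with 11 of 16 above 0 and a median of 0.34. Reads of Cd209a and its near-identical relatives may be divided uncertainly between them. Between TdLN and Healthy libraries 1 rose (7 with the block), Clec4a4, at 17.7 ± 5.99 CPM in TdLN against 4.45 ± 1.05 CPM in Healthy libraries (1.99, adjusted p = 0.0436). That call was lost without agonist replicate 2, TdLN replicate 1, 2 or 3 or any 1 Healthy library (adjusted p = 0.0630 to 0.199). Of the 14 plasmacytoid genes, 0 rose and 1 fell against TdLN (0 and 9 with the block), with a median of -0.56. The 1 was Atp1b1, a sodium pump subunit, at 18.6 ± 4.66 CPM in agonist against 41.2 ± 9.98 CPM in TdLN libraries (-1.15, adjusted p = 0.0463), a call lost without any 1 agonist or TdLN library or Healthy replicate 2 or 3 (adjusted p = 0.0570 to 0.143). Siglech, a lectin of plasmacytoid cells chosen after its values were seen, had 73.6 ± 43.9 against 161 ± 90.2 CPM (-1.13, adjusted p = 0.533; 0.000185 with the block).

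**Figure D5:**
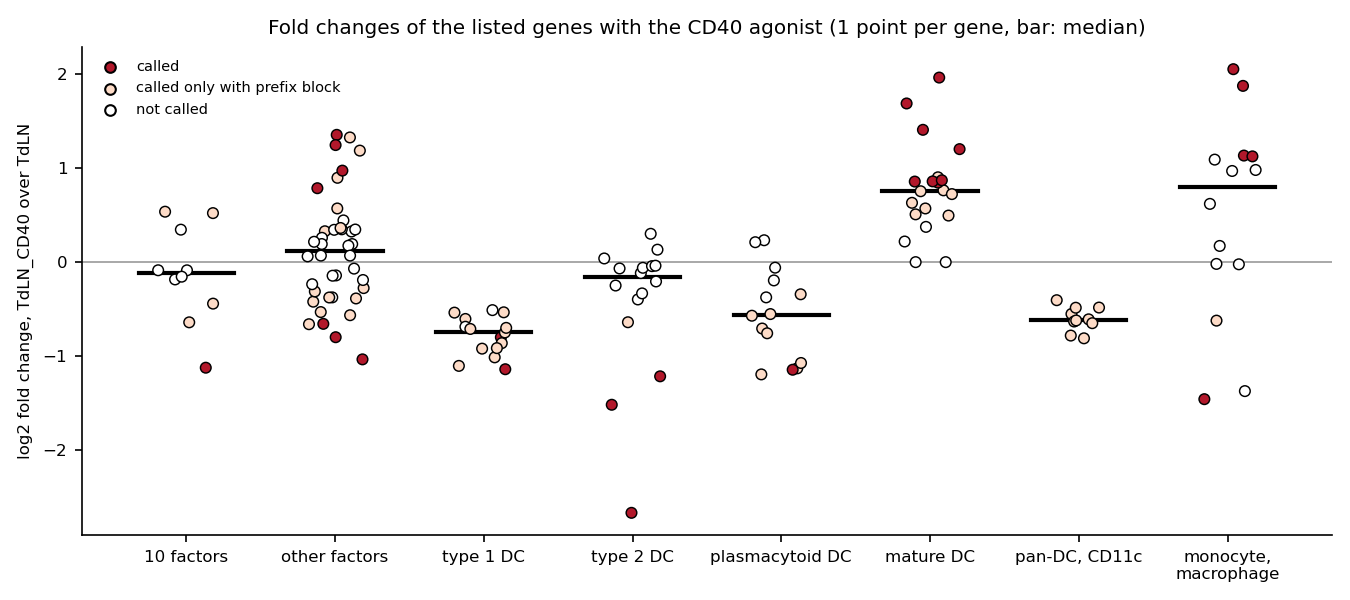
Log2 fold change of agonist over TdLN libraries (y axis), 1 point per gene, for the 10 factors, the 40 other factors and the marker genes of 6 cell states; bars are medians, dark points were called, pale points were called only with the prefix as a block and white points in neither fit. The 15 type 1 and the 10 pan-dendritic genes all lie below 0, with medians of -0.75 and -0.62, and 18 of the 20 mature dendritic cell genes lie above 0, with a median of 0.76.

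Genes of mature, migrating dendritic cells moved the other way. Of 20, 8 rose and 0 fell against TdLN (16 and 0 with the block), among them Ccr7, the receptor that guides these cells to nodes, at 762 ± 139 CPM in agonist against 236 ± 35.4 CPM in TdLN libraries (1.69, adjusted p = 0.00139). Their summed level was 9904 to 14570 CPM in agonist libraries, above 5039 to 7602 CPM in TdLN and 6059 to 9707 CPM in Healthy libraries. Of 10 genes that define dendritic cells or the CD11c gate, 0 were called (10 with the block, each lower), and their summed level was 18750 to 23570 CPM in agonist, below 29062 to 38687 CPM in TdLN libraries. Between agonist and Healthy libraries 3 of the 10 fell (7 with the block). Itgax, which encodes CD11c, had 731 ± 130 against 968 ± 188 CPM (-0.41, adjusted p = 0.431; 0.0260 with the block). Flt3, the growth factor receptor of the lineage, had 462 ± 100 against 677 ± 136 CPM (-0.55, adjusted p = 0.187; 0.00174 with the block). Cd74, the class II invariant chain, had 9904 ± 1934 against 15240 ± 4138 CPM (-0.62, adjusted p = 0.258; 0.00583 with the block). Cd74 made up a large part of the summed level, so that sum follows Cd74 far more than Itgax or Flt3. What part these shifts had in the values of the 10 factors was not tested.

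Markers of other cells that a CD11c gate could hold were present in all libraries, and Relb, Runx2, Kit and Cd4 each stand on 2 of the lists used here. Of 14 monocyte and macrophage genes 4 rose and 1 fell against TdLN (4 and 2 with the block), and their summed level was 1944 to 2676 CPM in agonist, 1422 to 2088 CPM in TdLN and 1598 to 1859 CPM in Healthy libraries. Against TdLN, 1 of 10 B cell genes rose, 2 of 12 natural killer and innate lymphoid genes rose and 1 fell, and 0 of 12 T cell, 0 of 7 plasma cell and 0 of 8 neutrophil genes were called. With the block 3 B cell genes rose, and 4 natural killer and innate lymphoid genes rose and 2 fell. In that fit 1 T cell gene and 1 plasma cell gene fell, and 0 neutrophil genes were called. Between agonist and Healthy libraries 8 monocyte and macrophage genes rose and 2 fell (median 1.40), 3 plasma cell genes (median 2.21), 3 neutrophil genes (median 2.02) and 1 B cell gene rose, 3 natural killer and innate lymphoid genes rose and 2 fell, and 5 T cell genes fell (median -1.05). With the block 7 neutrophil, 4 plasma cell and 3 B cell genes rose, and 1 T cell gene rose and 10 fell. Of natural killer and innate lymphoid genes 4 rose and 2 fell, and the monocyte and macrophage counts stayed the same. Between TdLN and Healthy libraries 2 plasma cell genes and 1 neutrophil gene rose. With the block 5 plasma cell genes, 5 neutrophil genes, 1 B cell gene and 1 monocyte and macrophage gene rose. Of T cell genes 1 rose and 6 fell with the block, and of natural killer and innate lymphoid genes 2 rose and 1 fell. The summed ranges in agonist, TdLN and Healthy libraries were 299 to 487, 296 to 430 and 232 to 435 CPM for B cell genes, and 289 to 425, 366 to 430 and 342 to 423 CPM for natural killer and innate lymphoid genes. They were 230 to 442, 273 to 498 and 317 to 556 CPM for T cell genes. Plasma cell genes summed to 512 to 963 CPM in agonist, 556 to 1519 CPM in TdLN and 394 to 665 CPM in Healthy libraries, and neutrophil genes to 62.2 to 149, 49.7 to 172 and 29.8 to 43.5 CPM. No listed gene was at 0 in every library, and Tnfrsf17, Ly6g and Camp had under 10 counts in every library. Their part in the results on the 10 factors, the calls of Id2 and Klf4 against Healthy included, was not tested.

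The genes whose profile over the 12 libraries was most like each factor were found by the root mean square difference of log2 CPM, each centred on its own mean, among 7653 protein-coding genes. Klf4 was nearest to Clec10a (0.151), the type 2 lectin described above, and to L1cam (0.161), and Tcf4 to Aff3 (0.0849) and Ago4 (0.112). Id2 was nearest to Apool (0.0992) and Arf4 (0.0995), Batf3 to Plekhm2 (0.0945) and Dok1 (0.111), and Irf8 to Eefsec (0.117) and Nop53 (0.144). Irf4 was nearest to Dpy19l1 (0.0917) and Zfp422 (0.112), Nfil3 to App (0.156) and Ccdc71l (0.164), and Zbtb46 to Taok3 (0.061) and Lrba (0.0797). Zeb2 was nearest to Abraxas2 (0.0421) and Rnf146 (0.0495), and Spi1 to Sbf1 (0.0694) and Arhgap27 (0.0698). All genes were measured in the same libraries, which differed in prefix and depth. Flat profiles give small differences by this measure, so the values rank genes for 1 factor and not between factors.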

How the data were processed

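Per the labels' protocols, RNA of CD11c cells came from a Qiagen RNeasy Plus Micro preparation and the libraries from a NEBNext Ultra II Directional preparation, so strand was kept. The deposited estimated counts per transcript, not normalized, were made by the authors with Salmon on mm10, per the submitters' processing notes. The deposited TPM, scaled by the authors to 1 total per library, came from the same quantification. The table's name says sailfish, a related program, and no version, annotation or filter was stated in the sources used here.

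Of 132374 transcripts, 131974 were matched to GENCODE M21 and summed to genes. The other 400 held 0.116% to 0.147% of a library's counts and were left out. Sums of counts were rounded. Tests used edgeR 4.0.16 under R 4.3.3 (quasi-likelihood, robust, TMM scaling, filterByExpr with minimum count 10, all 12 libraries, group as the term, 9 residual degrees of freedom). Log CPM used a prior count of 2. CPM of single genes used the TMM scaling, and summed levels of gene lists did not, so the scales differ somewhat. The script was tested on simulated data. No library repeated another (chi-square per degree of freedom at least 27.7 in the 18 pairs within groups). Alternatives were DESeq2 1.42.0, DESeq2 size factors, limma 3.58.1 on log2(TPM + 1) and log2(TPM + 0.1) with TPM of at least 1 in 4 libraries, no filter, only the 2 groups compared, each library left out, and, chosen after seeing the data, prefixes 1 and 2 or 3 and 4 left out.

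Title prefixes gave the replicate numbers. Deviations from group means correlated at 0.20 to 0.47 in all 12 same-prefix pairs, so the prefix was taken to pair libraries. The 36 others had a median of -0.24, but centring on group means itself pulls these below 0. Some of them were positive, only between prefixes 1 and 2 and between 3 and 4, up to 0.333 (TdLN replicate 2 with Healthy replicate 1). Agonist replicate 3 correlated more with TdLN replicate 4 (0.314) than with TdLN replicate 3 (0.299). The blocked fit has 6 residual degrees of freedom, with 20.7% as the biological coefficient of variation, against 33.9% in the unblocked fit. The labels do not say what the prefix means.

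The members and gene lists were chosen with earlier results of these data known. The text names all 10 members, Itgax, Flt3 and Cd74, and the 2 genes most like each member whose mean log2 CPM reached 4. Candidates from each other list were genes called in the fit with or without the block. They were those with the smallest p, up to 4 per comparison and 10 for other factors. Only some of these candidates are named. Of the other factors, 1 called gene is not reported here. Promoter sequences are from RefSeq (GRCm38.p6), with 8 of 10 members matched by symbol.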

Additional observations from a re-analysis of the deposited data

Results flagged for a closer look

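In 4 groups of 4 libraries, 1 library stood apart from the other 3 by Dixon's criterion at its 95% critical value, among 129 groups examined, where chance marks about 1 in 20. Nfil3 had 27.1 CPM in agonist replicate 4, against 23.2 to 23.8 CPM in the other agonist libraries. Bcl11a had 40.3 CPM in agonist replicate 1, against 54.6 to 57.3 CPM in the others, so the library apart was farthest from the TdLN level. Cebpb had 4.05 CPM in Healthy replicate 4, against 1.95 to 2.27 CPM in the other Healthy libraries. Ccl5, a chemokine of mature dendritic cells, had 1091 CPM in agonist replicate 4, against 656 to 724 CPM in the others.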

How the results depend on the processing

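With the prefix pairing the libraries, the fit with that replicate block called 3161, 1495 and 4781 genes between agonist and TdLN, TdLN and Healthy, and agonist and Healthy libraries, against 635, 47 and 1490 without it, and 5, 0 and 7 of the 10 factors against 1, 0 and 2. Calls that the block changed are given beside each factor above, and it changed no other call among the 10. In the same order of comparisons, DESeq2 called 1182, 393 and 2154 genes and 2, 0 and 4 factors, and limma on log2(TPM + 1) 270, 1 and 755 genes. Between TdLN and Healthy 75 genes were called with no filter and 25 with only these groups in the fit. Leaving out 1 library gave 323 to 547, 0 to 101 and 829 to 1535 genes, and 0 to 1, 0 to 0 and 2 to 4 factors. The TdLN and Healthy count was 0 without Healthy replicate 1, 3 or 4 and 101 without TdLN replicate 4. Without prefixes 1 and 2, 189, 0 and 808 genes and 0, 0 and 2 factors were called, and without prefixes 3 and 4, 91, 31 and 614 genes and 0, 0 and 1 factors, when Id2 lost its call against Healthy (0.64, adjusted p = 0.139).

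Of 630 recomputed fold changes of the factors 30 changed sign, 0 of them among the 63 for called results. For the other named genes 0 of 924 recomputed values of called results changed sign. Sign changes of their uncalled results were left out before counting, so the 2 sets of genes cannot be compared in this. Of the 2033 values kept for the other named genes, 159 lost a call and 39 gained one. Between agonist and TdLN, Irf8 became 0.03 in both TPM fits, 0.01 without prefixes 3 and 4 and ran from -0.26 to 0.16 with 1 library left out, and Spi1 ran from -0.21 to 0.06. Between TdLN and Healthy, Irf4 ran from -0.07 to 0.25 and was -0.04 without prefixes 1 and 2. Batf3 was 0.02 with DESeq2 or its size factors, 0.00 with no filter, 0.03 without prefixes 1 and 2 and -0.14 to 0.08 with 1 library left out. Tcf4 ran from -0.19 to 0.10, and Nfil3 was -0.15 without prefixes 3 and 4. Between agonist and Healthy, Zeb2 was 0.03 and Spi1 -0.04 in the TPM fits, and Spi1 ran from -0.03 to 0.27. The causes were not tested.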
